A study of Drosophila melanogaster with 8 samples.

Results

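Nicotinic acetylcholine receptors are the channels through which acetylcholine excites insect neurons. *Drosophila* has 10 genes for their subunits, *nAChRalpha1* to *nAChRalpha7* and *nAChRbeta1* to *nAChRbeta3*, and all 10 were found by gene identifier among the 17473 genes measured here. They were followed in 8 mRNA libraries of whole larvae at the L3 stage, the last before pupation, 2 from each of 4 strains. The *WT* strain had the genotype *w1118*, and the other strains were homozygous for a deletion made with CRISPR/Cas9 and crossed back to *WT* over several generations. U12Δ and U6atacΔ (labelled U12-delta/delta and U6atac-delta/delta) lack an snRNA of the minor spliceosome, which removes the rare U12-type introns. SmnΔ (labelled Smn-delta/delta) lacks the gene for SMN, the protein that helps to assemble spliceosomal snRNPs and whose loss causes spinal muscular atrophy in humans. Each library held RNA pooled from several L3 larvae picked at random from vials, and the labels number the libraries of a strain 1 and 2. Each deletion is represented by 1 strain. The homozygous mutants die as larvae or pupae. All labels give the stage as L3 with no age in hours, but the study's own staging placed SmnΔ at another L3 stage than the *WT*, U12Δ and U6atacΔ larvae, so that in each comparison with SmnΔ the genotype and the stage cannot be told apart.

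A nicotinic receptor is a pentamer of subunits of the Cys-loop family, arranged around a pore for cations. Alpha subunits carry a pair of adjacent cysteines in the acetylcholine binding site, which beta subunits lack, and receptors of different subunits differ in their pharmacology. In flies, acetylcholine is the main fast excitatory transmitter of the central nervous system and of sensory neurons, whereas motor neurons release glutamate onto the body wall muscles. The receptors are the targets of the neonicotinoid and spinosyn insecticides. In whole larvae these transcripts come from a small part of the body, and a lower value from fewer neurons cannot be told apart from one with less RNA in each neuron.

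The values are TPM, a measure of transcript abundance in which the reads of a gene are divided by its length and scaled so that each library sums to 1000000. The levels of genes can be compared on this scale, while a library in which a few genes are very high has lower values for the rest. In these libraries the 10 highest genes held between 16.6% and 35.0% of the TPM. The libraries of a strain differed widely, with Spearman correlations across the 11122 genes tested of 0.671 to 0.748. Between 44.0% and 50.3% of those genes differed by more than 2-fold in TPM + 1 between the libraries of a strain. The tables hold no reads per gene. The study lists total reads per library, which were not used here, and counting error was not computed. Of the deleted genes, *Smn* was lowest in the SmnΔ libraries (4.57 and 0.653 TPM). It was at 24.7 and 28.3 TPM in *WT*, 9.76 and 200 in U12Δ, and 14.0 and 9.57 in U6atacΔ, so it too varied widely within a strain. snRNA:U12 was listed at 0 in both U12Δ libraries but also at only 0.0724 and 0.454 TPM in *WT*, a weak check, and snRNA:U6atac was listed at 0 in all 8 libraries. The 13 pan-neuronal markers examined, *elav* among them, were above 0 in every library, and their summed TPM lay between 187 in U12Δ library 1 and 541 in U6atacΔ library 2. A few markers weighed heavily in this sum, such as *Syt1* at 218 and 276 TPM in U6atacΔ. The median marker was at 18.6 and 13.8 TPM in *WT*, 10.2 and 14.0 in U12Δ, 8.47 and 7.09 in U6atacΔ, and 29.9 and 7.89 in SmnΔ. It was thus lowest in the library where the sum was highest. The body wall muscle markers were likewise above 0 in every library. The larvae were not alike in other tissues. The 6 fat body markers of late larvae summed to 3.89 and 0.507 TPM in SmnΔ against 28353 to 116160 TPM in the other 6 libraries, with all 6 lower than in *WT* by limma, from −9.89 on the log2 scale for *Lsp2* (adjusted p = 0.00342 from limma) to −14.7 for *Fbp1* (adjusted p = 0.0270 from limma). The 6 salivary glue markers summed to 1.06 and 0.872 TPM in SmnΔ, 16212 and 8048 in *WT*, 211170 and 18.3 in U12Δ, and 643 and 2220 in U6atacΔ, so the libraries of a strain differed here too. The part of these differences between the larvae in the subunit values was not tested.

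The subunit transcripts were detected at low levels. Of the 10 genes, 9 were above 0 in all 8 libraries, 3 (*nAChRalpha1*, *nAChRalpha6* and *nAChRalpha7*) were at 1 TPM or more in all 8, and *nAChRbeta3* was listed at 0 in all 8. The comparison between strains tested the genes with a mean of at least 1 TPM, a level that 8 subunits reached. *nAChRalpha3*, at a mean of 0.601 TPM, lay just below it and *nAChRalpha2*, at 1.14 TPM, just above it. With the mean taken without any 1 of the strains, 7 of the subunits always remained above 1 TPM. By the median over the 8 libraries, the order was *nAChRalpha4* (3.40 TPM), *nAChRalpha1* (3.27), *nAChRbeta1* (3.15), *nAChRalpha7* (2.78), *nAChRalpha5* (2.68), *nAChRalpha6* (2.28), *nAChRalpha2* (1.34), *nAChRbeta2* (1.18) and *nAChRalpha3* (0.475). Neighbours among the first 6 did not differ beyond their spread, since each was above the next in only 3 to 5 of the 8 libraries. *nAChRalpha6* was above *nAChRalpha2* in 7 of 8, *nAChRalpha2* above *nAChRbeta2* in 5 of 8 and *nAChRbeta2* above *nAChRalpha3* in 6 of 8. By the mean the order was another one, led by *nAChRbeta1* (13.4 TPM) and *nAChRalpha4* (10.3 TPM), each of which had a library far above its others. At these means *nAChRbeta1* lay above 48.6% of the genes tested and *nAChRalpha4* above 42.0%, but at their medians above 29.5% and 31.0%.

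**Figure D1:**
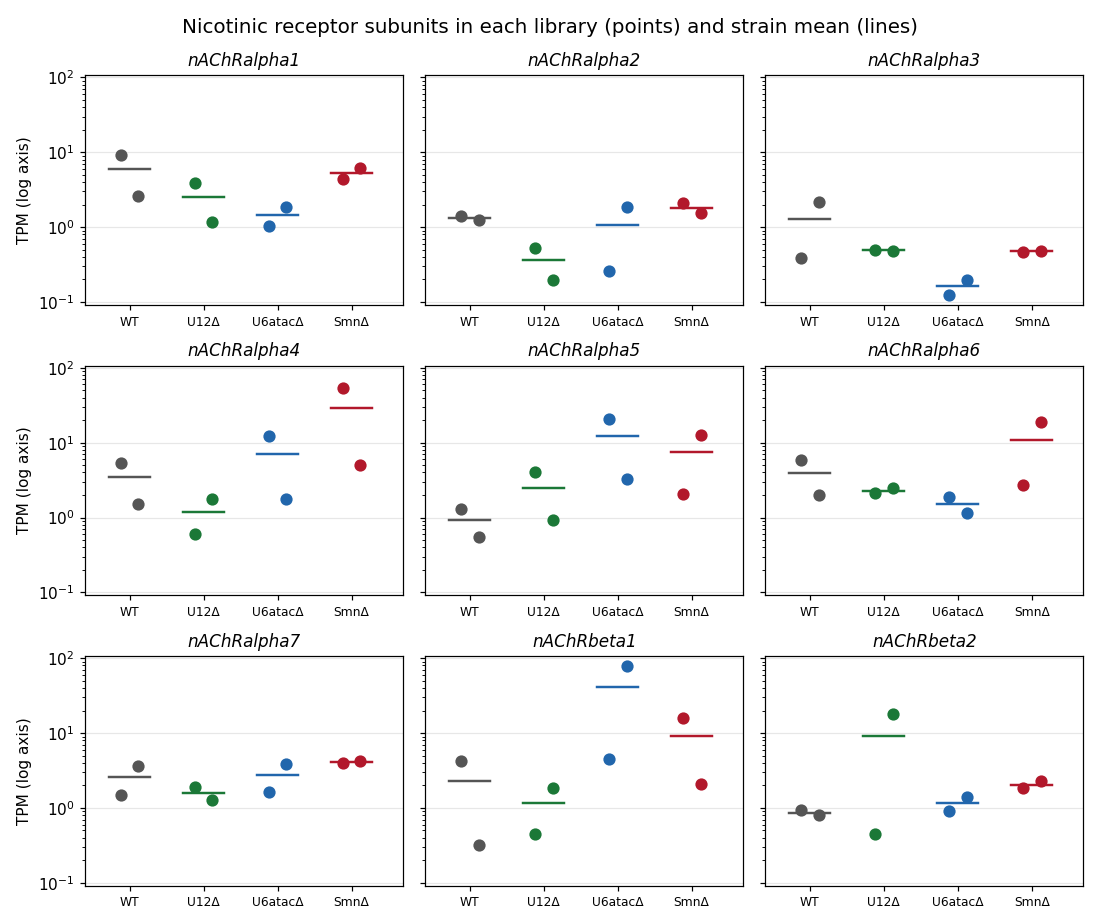
TPM (log axis) of the 9 subunits above 0, with each library as a point and the mean of the 2 libraries of a strain as a line. *nAChRalpha7* stayed within 1.28 to 4.26 TPM, whereas *nAChRbeta1* ranged from 0.324 to 77.8 TPM.

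The subunits often differed widely between the libraries of a strain. Of the 36 pairs of libraries (9 subunits in 4 strains), 22 differed by more than 2-fold in TPM and 11 by more than 5-fold. The share of all genes given above, 44.0% to 50.3%, was counted on TPM + 1, where low genes differ less. The counts of pairs therefore do not show whether the subunits varied more than other genes. The widest gaps were 39.7-fold for *nAChRbeta2* in U12Δ, 17.5-fold for *nAChRbeta1* in U6atacΔ, 13.1-fold for *nAChRbeta1* in *WT* and 10.8-fold for *nAChRalpha4* in SmnΔ. Across the 8 libraries, 7 different subunits were the highest of the family. *nAChRalpha1* led in *WT* library 1 and *nAChRalpha7* in *WT* library 2, *nAChRalpha5* in library 1 of U12Δ and of U6atacΔ, *nAChRbeta2* in U12Δ library 2, *nAChRbeta1* in U6atacΔ library 2, *nAChRalpha4* in SmnΔ library 1 and *nAChRalpha6* in SmnΔ library 2. The leading subunit made up between 24.7% of the summed subunit TPM, in *WT* library 2, and 83.5%, in U6atacΔ library 2.

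The summed TPM of the subunits was 30.4 and 14.9 in *WT*, 14.5 and 27.9 in U12Δ, 43.5 and 93.1 in U6atacΔ, and 87.6 and 53.4 in SmnΔ. The U12Δ libraries overlapped those of *WT*, and the U6atacΔ and SmnΔ libraries all lay above them. In U6atacΔ library 2, *nAChRbeta1* alone gave 77.8 of the 93.1 TPM, and in SmnΔ library 1, *nAChRalpha4* gave 53.9 of the 87.6 TPM. The median subunit, on which a single gene has less weight, was at 1.46 and 1.38 TPM in *WT*, 0.564 and 1.22 in U12Δ, 1.33 and 1.81 in U6atacΔ, and 2.41 and 3.27 in SmnΔ. By this measure both SmnΔ libraries were again above *WT*, while the U6atacΔ libraries lay on either side of it. The position of U6atacΔ depended on the 0 of *nAChRbeta3*, a gene that could not be measured in these tables. Without that gene the median was 1.50 and 1.51 TPM in *WT* and 1.62 and 1.86 TPM in U6atacΔ. Both U6atacΔ libraries then lay narrowly above *WT*, and both SmnΔ libraries stayed above it. Relative to the summed pan-neuronal markers, the subunits made up 7.26% and 4.07% in *WT*, 7.74% and 9.57% in U12Δ, 8.55% and 17.2% in U6atacΔ, and 17.2% and 26.3% in SmnΔ. The marker sum itself was 508 TPM in SmnΔ library 1 but 203 TPM in library 2, against 418 and 365 TPM in *WT*, so the subunits of library 2 stood beside a neuronal sum below that of *WT*. A few markers made up much of this sum, and the median marker ranked the libraries otherwise. The percentages therefore depended on the use of the sum.

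**Figure D2:**
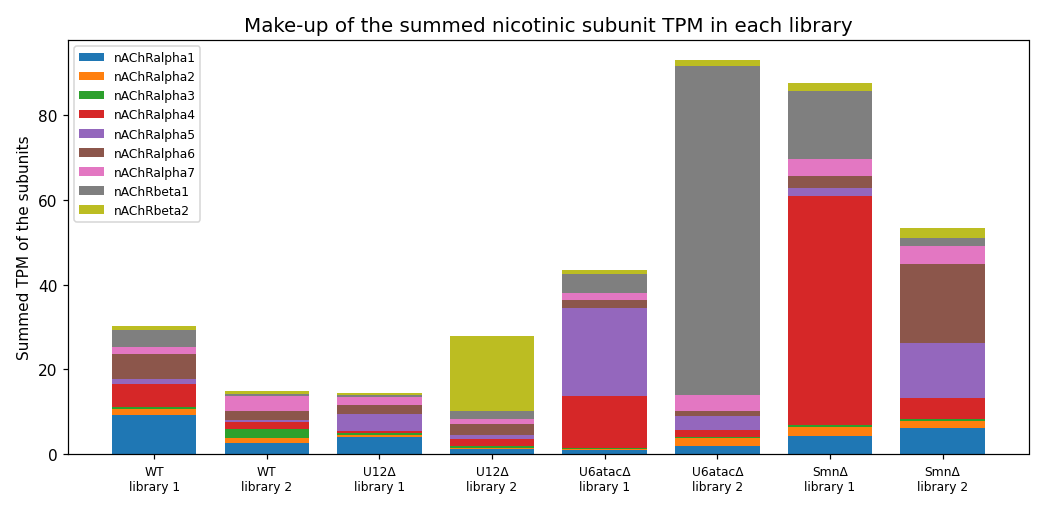
Summed TPM of the subunits in each of the 8 libraries, stacked by subunit. The leading subunit changed from library to library, and *nAChRbeta1* filled 83.5% of the bar of U6atacΔ library 2.

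The genes *nAChRalpha1*, *nAChRalpha2* and *nAChRbeta2* lie together on chromosome 3R, within 121.2 kb at chr3R:24393896-24515106 of dm6, with gaps of 28.27 and 18.08 kb between them. *nAChRalpha1* (FBgn0000036, chr3R:24393896-24457157, minus strand, 10 exons per transcript) is a subunit whose mutation gives resistance to neonicotinoids. Its TPM was 9.20 and 2.62 in *WT*, 3.91 and 1.16 in U12Δ, 1.05 and 1.86 in U6atacΔ, and 4.37 and 6.23 in SmnΔ. Both U6atacΔ libraries were below both of *WT*, and the other strains overlapped with it. The mean was 5.91 ± 4.65 TPM (SD, n = 2) in *WT* and 1.45 ± 0.576 TPM (SD, n = 2) in U6atacΔ, a log2 difference of −1.33 on the log2(TPM + 1) scale (standard error 0.82, adjusted p = 0.595 from limma).

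*nAChRalpha2* (FBgn0000039, chr3R:24485428-24491147, plus strand) is a short gene of 5.72 kb beside it. Its TPM was 1.42 and 1.25 in *WT*, 0.523 and 0.196 in U12Δ, 0.260 and 1.87 in U6atacΔ, and 2.07 and 1.55 in SmnΔ. The U12Δ libraries lay below those of *WT* and the SmnΔ libraries above them. On the log2 scale the differences were −0.79 (standard error 0.62, adjusted p = 0.696 from limma) in U12Δ and 0.26 (standard error 0.62, adjusted p = 0.889 from limma) in SmnΔ.

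*nAChRbeta2* (FBgn0004118, chr3R:24509228-24515106, minus strand), the beta subunit of the cluster, is likewise known from neonicotinoid resistance. Its TPM was 0.944 and 0.792 in *WT*, 0.446 and 17.7 in U12Δ, 0.920 and 1.42 in U6atacΔ, and 1.83 and 2.27 in SmnΔ. A single library, U12Δ library 2, was 7.80-fold above the next, and the remaining 7 lay between 0.446 and 2.27 TPM. The log2 difference of U12Δ from *WT* was 1.48 (standard error 1.06, adjusted p = 0.659 from limma), and without that library it was −0.37. Both SmnΔ libraries were above both of *WT*, by 0.71 on the log2 scale (standard error 1.06, adjusted p = 0.805 from limma).

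*nAChRalpha3* (FBgn0015519, chrX:8276200-8367169, minus strand) was the lowest subunit above 0 and was not tested. Its TPM was 0.389 and 2.17 in *WT*, 0.499 and 0.479 in U12Δ, 0.126 and 0.198 in U6atacΔ, and 0.472 and 0.482 in SmnΔ. *WT* library 2 was 4.34-fold above the next library, and U6atacΔ was below both *WT* libraries. Its exons share 251 bases with those of *CG1636* on the opposite strand, which had a mean of 6.55 TPM. The library kit does not mark the strand, so reads in those bases cannot be assigned.

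*nAChRalpha4* (FBgn0266347, chr3L:23206669-23287448, plus strand, 6 annotated transcripts of 8 to 12 exons) is a subunit known in flies for its part in the control of sleep. Its TPM was 5.43 and 1.51 in *WT*, 0.605 and 1.79 in U12Δ, 12.2 and 1.76 in U6atacΔ, and 53.9 and 5.01 in SmnΔ. SmnΔ library 1 was 4.42-fold above any other, while library 2 lay within the range of *WT*. The mean was 29.5 ± 34.6 TPM (SD, n = 2) in SmnΔ and 3.47 ± 2.78 TPM (SD, n = 2) in *WT*, with a log2 difference of 2.18 (standard error 1.22, adjusted p = 0.459 from limma). Against U12Δ, whose libraries were both below both of SmnΔ, the difference was −3.10 for U12Δ minus SmnΔ (standard error 1.22, 95% interval −5.85 to −0.35). This was the only one of the 40 subunit differences with an unadjusted p under 0.05 (0.0310 from limma). In U12Δ against SmnΔ such a p was thus found for 1 of 8 subunits, beside 11% of all genes tested. In U6atacΔ against SmnΔ it was found for 0 of 8, beside 11.6% of all genes. Adjusted over all genes, the difference of *nAChRalpha4* did not pass (adjusted p = 0.387 from limma).

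The subunits *nAChRalpha5*, *nAChRalpha6* and *nAChRalpha7* form the group that is most like the vertebrate alpha7 subunit. *nAChRalpha5* (FBgn0028875, chr2L:14040170-14094401, plus strand) was at 1.30 and 0.544 TPM in *WT*, 4.03 and 0.937 in U12Δ, 20.95 and 3.27 in U6atacΔ, and 2.09 and 12.9 in SmnΔ. The U6atacΔ and SmnΔ libraries were all above both of *WT*. In U6atacΔ the mean was 12.1 ± 12.5 TPM (SD, n = 2) against 0.923 ± 0.535 TPM (SD, n = 2) in *WT*, with a log2 difference of 2.36 (standard error 1.07, adjusted p = 0.491 from limma). In SmnΔ the difference was 1.79 (standard error 1.07, adjusted p = 0.485 from limma).

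*nAChRalpha6* (FBgn0032151, chr2L:9793317-9886250, minus strand, 7 annotated transcripts) encodes the target of spinosad, and its transcript is known for RNA editing at several sites. Its TPM was 5.93 and 2.01 in *WT*, 2.11 and 2.45 in U12Δ, 1.87 and 1.15 in U6atacΔ, and 2.73 and 18.7 in SmnΔ. Only SmnΔ library 2 stood apart, 3.15-fold above *WT* library 1, and the U6atacΔ libraries were both below *WT*. The log2 difference from *WT* was 0.91 (standard error 0.92, adjusted p = 0.700 from limma) in SmnΔ and −0.88 (standard error 0.92, adjusted p = 0.781 from limma) in U6atacΔ. Without SmnΔ library 2, the first of these turned to −0.29.

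*nAChRalpha7* (FBgn0086778, chrX:19327075-19348447, minus strand) is needed in the giant fibre pathway of the escape jump. It had the narrowest range of the subunits above 0, 3.32-fold over the 8 libraries. Its TPM was 1.50 and 3.67 in *WT*, 1.89 and 1.28 in U12Δ, 1.62 and 3.82 in U6atacΔ, and 3.97 and 4.26 in SmnΔ. Both SmnΔ libraries were the highest of the 8, at a mean of 4.12 ± 0.201 TPM (SD, n = 2) against 2.59 ± 1.54 TPM (SD, n = 2) in *WT*, and the log2 difference was 0.58 (standard error 0.71, adjusted p = 0.750 from limma).

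*nAChRbeta1* (FBgn0000038, chr3L:4429349-4435993, plus strand) encodes a beta subunit whose homologue in the aphid *Myzus persicae* is a site of neonicotinoid resistance. Its TPM was 4.24 and 0.324 in *WT*, 0.449 and 1.87 in U12Δ, 4.46 and 77.8 in U6atacΔ, and 16.1 and 2.06 in SmnΔ. It varied most of the family, 240.2-fold between *WT* library 2 and U6atacΔ library 2, and the lower U6atacΔ library was close to the higher of *WT*. The mean in U6atacΔ was 41.1 ± 51.8 TPM (SD, n = 2) against 2.28 ± 2.77 TPM (SD, n = 2) in *WT*, a log2 difference of 2.98 (standard error 1.39, adjusted p = 0.501 from limma). It was the widest difference from *WT* of any subunit, and it lay between 1.05 and 4.90 when each library was left out in turn.

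*nAChRbeta3* (FBgn0031261, chr2L:545129-547096, plus strand, 4 exons) encodes a divergent subunit. All of its 1532 exonic bases lie within exons of *Ets21C* (FBgn0005660, chr2L:544925-552923, minus strand), a transcription factor gene, in the BDGP6 annotation, whose coordinates of the 10 subunit genes are those of the deposited tables. *Ets21C* was at 2.26 and 0.342 TPM in *WT*, 14.1 and 12 in U12Δ, 4.78 and 8.77 in U6atacΔ, and 84.6 and 18.4 in SmnΔ, while *nAChRbeta3* was listed at 0 throughout. Of the 516 genes whose exons lie wholly within exons of other genes, 513 (99.4%) were listed at 0 in all 8 libraries, against 799 (6.67%) of the 11974 genes with no shared exonic base. Among genes of at least 1000 bases, these shares were 99.7% of 318 and 1.06% of 7238. The values of 0 therefore cannot be read as the absence of *nAChRbeta3* transcripts, and this gene could not be measured in these tables.

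None of the 8 subunits tested passed an adjusted p of 0.05 by limma in any of the 5 comparisons, which set each deletion strain against *WT* and the snRNA deletion strains against SmnΔ. Of all 11122 genes tested, the share called was 0% in U12Δ against *WT* (0 genes, with 1050 at an unadjusted p under 0.05), 0% in U6atacΔ against *WT* (0 genes, with 1147), 1.51% in SmnΔ against *WT* (168 genes, with 1547), and 1.31% (146 genes) in both comparisons with SmnΔ. At an unadjusted p under 0.05 from limma, 0 of the 8 subunits were found in any comparison with *WT*, against 9.44%, 10.3% and 13.9% of all genes in U12Δ, U6atacΔ and SmnΔ. The intervals were wide, with a median standard error over the subunits of 0.99 on the log2 scale, so differences of several fold were not detectable.

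The direction of the differences from *WT* was not the same in the 3 strains, which share the *WT* libraries. In SmnΔ 8 of 8 subunits had a log2 difference above 0, with a median of 0.81, beside 45.2% of all genes and a median of −0.18. *nAChRalpha2* reached the level for testing only through SmnΔ, where it was highest (mean without SmnΔ 0.920 TPM), and without it the count was 7 of 7. *nAChRalpha3*, which was not tested, had a difference of −0.51 in SmnΔ. In U12Δ 2 of 8 were above 0, with a median of −0.44, beside 33.8% and −0.53 for all genes. In U6atacΔ 5 of 8 were above 0, with a median of 0.13, beside 34.5% and −0.49. The count of 8 in SmnΔ also held with libraries scaled by their median ratio and with each gene centred on those listed around it, but *nAChRalpha1*, at 0.04, turned to −0.71 without *WT* library 2 and to −0.18 without SmnΔ library 2, and *nAChRalpha6* turned to −0.29 without the latter. In U12Δ, 5 of 8 were above 0 after median-ratio scaling, which moved the median of all genes to 0.02, so the direction there depended on the scaling.

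Of the 8 subunits, 4 had both SmnΔ libraries above both *WT* libraries (*nAChRalpha2*, *nAChRalpha5*, *nAChRalpha7* and *nAChRbeta2*), beside 20.4% of all genes tested, and 0 had both below, beside 25.6%. *nAChRalpha2* is counted among the 4 although only its SmnΔ values brought it to the level for testing. In U6atacΔ, 2 were above (*nAChRalpha5* and *nAChRbeta1*), beside 11.9%, and 2 below (*nAChRalpha1* and *nAChRalpha6*), beside 33%. In U12Δ, 0 were above, beside 10.4%, and *nAChRalpha2* was below, beside 31.2%.

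**Figure D3:**
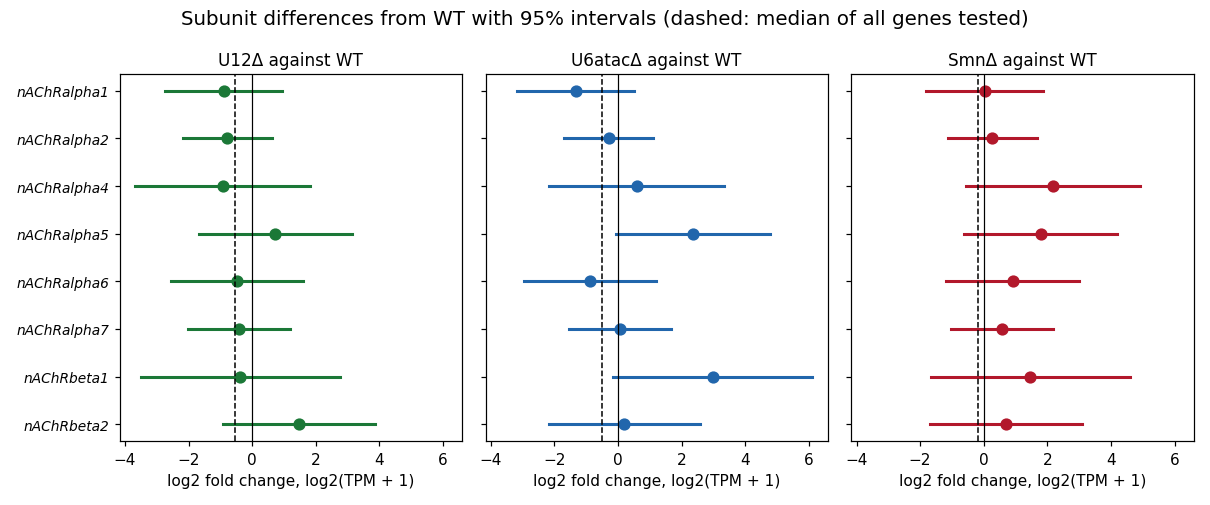
Differences of the 8 tested subunits from *WT* on the log2(TPM + 1) scale (points) with 95% intervals from limma (lines), and the median of all 11122 genes tested (dashed). All intervals include 0, and the 8 points of SmnΔ lie at or above 0.04.

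Genes in adjacent rows of the deposited tables deviated together in a library, with correlations between adjacent genes of 0.438 to 0.525 for the difference between the libraries of a strain. The libraries in which single subunits stood out were therefore set beside the 20 tested genes listed nearest to each. *nAChRbeta1* exceeded its own mean by 3.89 on the log2 scale in U6atacΔ library 2, where 20 of its 20 neighbours also had their highest value, with a median excess of 3.96. *nAChRalpha5* exceeded its mean by 2.32 in U6atacΔ library 1, where 15 of 20 neighbours were highest, with a median excess of 3.91. The 20 nearest genes in the genome, many of them the same genes, had a median excess of 3.71 for *nAChRbeta1* and 3.55 for *nAChRalpha5*. Of all genes tested, 8.88% and 8.33% were highest in these libraries. Both subunits thus stood no higher there than the genes listed around them.

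The other subunits with a single high library followed their row neighbours less or not at all. For *nAChRalpha4* in SmnΔ library 1, 8 of 20 neighbours were highest there, beside 19% of all genes, and their median excess was 2.01 against 3.31 for the subunit. None of these neighbours lies on its chromosome, and the median excess of its 20 nearest genes in the genome was 0.20. *nAChRalpha7* had no library that stood apart, its highest, SmnΔ library 2, being 1.07-fold above the next. Its excess there was 0.57, against 0.12 for its row neighbours and 3.01 for its genome neighbours. *nAChRalpha4*, *nAChRalpha6* and *nAChRalpha7* each share no neighbour between the table and the genome. For *nAChRalpha6* in SmnΔ library 2, 6 of 20 row neighbours were highest, beside 11.6% of all genes, with a median of 0.07 against 2.22 for the subunit. Of its genome neighbours 1 of 20 was highest there, with a median of −0.29. For *nAChRbeta2* in U12Δ library 2, 0 of 20 were highest, with a median of −0.25 against 2.73, and its genome neighbours had a median of −0.29. For *nAChRalpha3* in *WT* library 2, 5 of 20 row neighbours were highest, beside 14.2% of all genes. Their median was 0.17 against 1.06 for the subunit. Of its genome neighbours 8 of 20 were highest there, with a median of 0.84. When each gene was centred on its neighbours, the differences of U6atacΔ from *WT* became 0.46 for *nAChRbeta1* and 0.27 for *nAChRalpha5*, and that of SmnΔ became 0.75 for *nAChRalpha4*. The source of the shared deviations was not tested. Whether the values of every row belong to the gene named there was not tested either, and each TPM given here is that of the row so named.

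**Figure D4:**
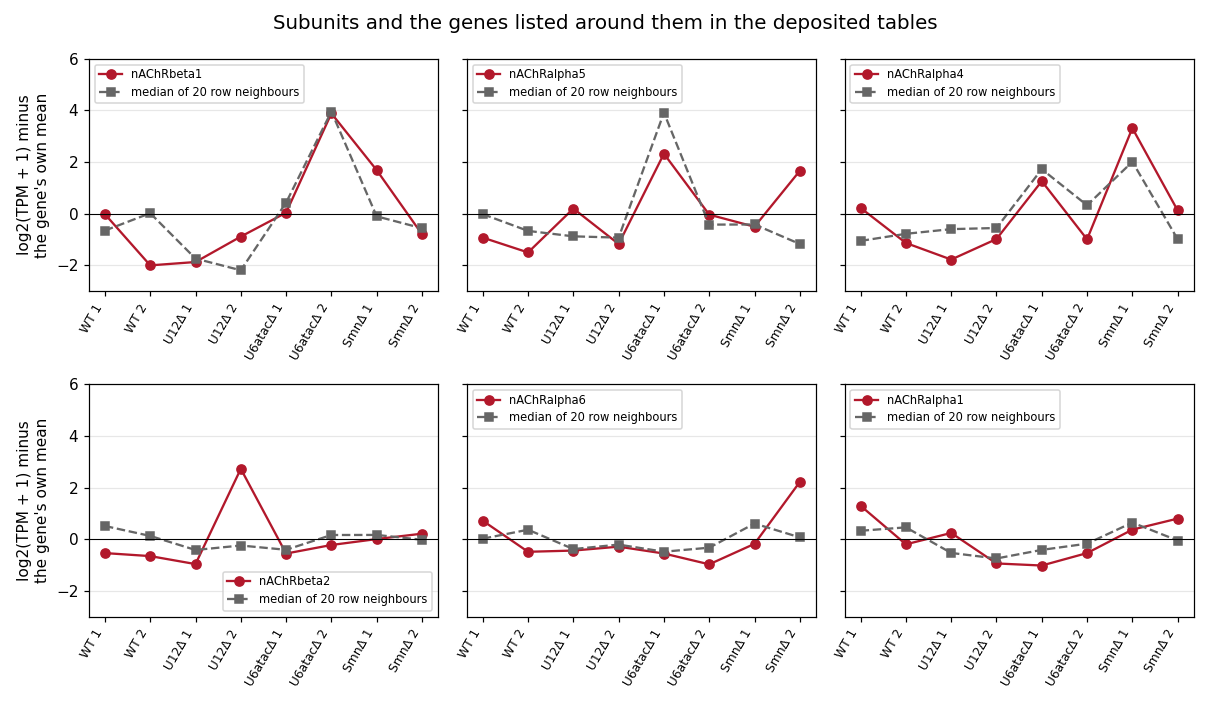
Deviation of 6 subunits from their own mean over the 8 libraries (circles, log2(TPM + 1)) and the median deviation of the 20 tested genes listed nearest to each in the deposited tables (squares). In *nAChRbeta1* the lines meet at 3.89 and 3.96 in U6atacΔ library 2, whereas *nAChRbeta2* rises to 2.73 in U12Δ library 2 beside −0.25 for its neighbours.

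Other genes of cholinergic transmission were examined in the same fit, and 0 were called in any comparison with *WT* by limma. Of all genes, 0% were called in U12Δ, 0% in U6atacΔ and 1.51% in SmnΔ, so a count of 0 says little about so few genes. *ChAT*, which makes acetylcholine, was at 3.96 and 0.797 TPM in *WT*, 1.16 and 3.73 in U12Δ, 0.195 and 0.264 in U6atacΔ, and 1.59 and 4.96 in SmnΔ. *VAChT*, the vesicular transporter whose gene is nested in that of *ChAT*, was at 4.94 and 98.6 TPM in *WT*, 30.4 and 2.22 in U12Δ, 0.536 and 0.756 in U6atacΔ, and 1.73 and 56.6 in SmnΔ. Both were lowest in the U6atacΔ libraries, with log2 differences from *WT* of −1.28 (standard error 0.78, adjusted p = 0.594 from limma) for *ChAT* and −3.89 (standard error 1.78, adjusted p = 0.491 from limma) for *VAChT*. *Ace*, which degrades acetylcholine, was at 7.84 and 24.8 TPM in *WT* and between 2.58 and 10.5 TPM in the other 6 libraries. The choline transporter gene *ChT* was below the level for testing. Of the 3 tested, 1 had a log2 difference from *WT* above 0 in U12Δ, 0 in U6atacΔ and 1 in SmnΔ, beside 33.8%, 34.5% and 45.2% of all genes.

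Of the muscarinic receptors, which act through G proteins, only *mAChR-A* reached the level for testing, at 4.75 and 40.9 TPM in *WT*, 3.45 and 3.13 in U12Δ, 2.65 and 0.439 in U6atacΔ, and 10.4 and 3.46 in SmnΔ. *WT* library 2 was the highest. *ric-3*, a chaperone of nicotinic receptor assembly, was at 7.82 and 155.6 TPM in *WT* and between 12.5 and 65.3 TPM in the other libraries. *qvr*, a Ly6 protein of neuronal membranes that acts on potassium channels and nicotinic receptors, was at 1.15 and 3.60 TPM in *WT*, 1.05 and 8.19 in U12Δ, 1.40 and 5.75 in U6atacΔ, and 8.99 and 1.76 in SmnΔ. In both genes the strains overlapped with *WT*. *Adar*, the enzyme that edits subunit transcripts, was at 12.6 and 20.2 TPM in *WT*, 3.18 and 18.1 in U12Δ, 14.1 and 16.9 in U6atacΔ, and 49.3 and 55.7 in SmnΔ. Both SmnΔ libraries were the highest, with a log2 difference of 1.65 (standard error 1.04, adjusted p = 0.507 from limma).

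The other Cys-loop channels, among them receptors for GABA, glutamate and histamine, gave a measure of related receptors. Of the 11 genes listed, 7 were tested and 0 were called in any comparison with *WT*, beside 0%, 0% and 1.51% of all genes in U12Δ, U6atacΔ and SmnΔ. All 7 were above 0 in SmnΔ, with a median log2 difference of 1.11, beside 45.2% of all genes and a median of −0.18. In U12Δ 3 of 7 were above 0, beside 33.8%, and in U6atacΔ 4 of 7, beside 34.5%. Among the genes too low for testing, *HisCl1* was lower in both SmnΔ libraries than in both of *WT*. *CG8916* was above 0 only in SmnΔ, and in *ort* and *CG12344* the SmnΔ libraries overlapped with *WT*. *Rdl*, the GABA receptor subunit that is the target of dieldrin, was at 6.52 and 9.47 TPM in *WT*, 2.08 and 34.2 in U12Δ, 1.05 and 13.2 in U6atacΔ, and 3.51 and 61.6 in SmnΔ. *Grd*, related to GABA and glycine receptors, was at 1.64 and 0.212 TPM in *WT*, 64.5 and 1.19 in U12Δ, 3.31 and 8.95 in U6atacΔ, and 94.2 and 2.06 in SmnΔ. *CG7589*, the highest of the list by its mean, was at 2.14 and 28.4 TPM in *WT*, 2.09 and 0.627 in U12Δ, 45.9 and 46.9 in U6atacΔ, and 8.13 and 46.4 in SmnΔ. All 3 differed by more than 5-fold between the SmnΔ libraries. Of the pan-neuronal markers 9 of 13 were above 0 in SmnΔ, with a median of 0.36, and of the glial markers 1 of 7, with a median of −0.81. Both stand beside the same 45.2% and median of −0.18 for all genes.

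The genes whose profile was closest to the mean log2 profile of the 10 subunits, by Pearson's r over the 8 libraries, were *ND-39* (r = 0.970), *CG7220* (r = 0.953) and *CG31323* (r = 0.951). With the libraries farthest from the median of the profile left out, r was 0.946, 0.913 and 0.963. The mean subunit profile was highest in the SmnΔ libraries (2.18 and 2.12 on the log2(TPM + 1) scale) and lowest in U12Δ library 1 (1.07). *ND-39*, a subunit of mitochondrial complex I, was at 456 and 447 TPM in SmnΔ against 148 and 38.5 TPM in *WT* and 45.3 to 144 TPM in the other strains. These genes were picked among 11122 for their likeness over 8 libraries, so the values of r are a description.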

How the data were processed

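Gene expression was measured by paired-end mRNA-seq of whole larvae. As far as the study's methods and the submitters' processing notes say, the authors filtered and trimmed the reads and mapped them to dm6 with TopHat2, and featureCounts is named without a role. The authors deposited TPM for 17473 genes per library, and the tool that made the TPM is not given in the sources used here. Of all values above 0 (TPM multiplied by gene length), only 9.81% to 10.2% lay within 0.05 of a whole multiple of the lowest. Low values, where whole multiples would be clearest, were not counted apart, so this was a weak check. Reads per gene were not recovered, and precision was judged from the spread between the 2 libraries per strain.

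Strains were compared by limma 3.58.1 in R 4.3.3, with lmFit, contrasts.fit and a trended eBayes. Values entered as log2(TPM + 1). The 11122 genes averaging 1 TPM or more were fitted together for all 4 strains, and p-values were adjusted over them by the Benjamini-Hochberg method (threshold 0.05). A fold change on this scale understates that of low genes. The study describes the libraries of a strain as biological repeats. The p-values weigh each difference against the spread between such libraries, pooled over the 4 strains and drawn towards that of genes at a like level. Each gene thus has the same standard error in all 5 comparisons. The fit was tested on simulated data. Python 3.11.15, numpy 2.4.6, pandas 2.3.3 and matplotlib 3.10.9 served for everything else. Symbols and exons were read from the BDGP6 annotation of Ensembl, whose coordinates matched those of the deposited tables for 17217 of the 17473 genes.

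The subunits are described in full. The other lists are given by counts, with values for members among the 4 with the highest mean TPM, and the fat body markers, which passed the test, by their sums and the range of their differences, and the 3 genes with the highest Pearson's r to the mean subunit profile are named. *Adar* and *qvr* are the remaining members of their short lists. The members and lists were chosen with earlier results of these data known. Alternatives tried were an unfiltered fit, a minimum mean of 5 TPM, a pseudocount of 0.1, scaling by median ratios, fits restricted to the 4 libraries of a comparison, a block for the replicate number, omission of each library in turn and, chosen after seeing the data, centring each gene on the 20 tested genes listed nearest to it.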

Additional observations from a re-analysis of the deposited data

How the results depend on the processing

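No subunit was called under any alternative, and the lowest adjusted p of any subunit was 0.158 from limma (*nAChRalpha4*, U12Δ against SmnΔ). The counts over all genes moved more. Without the filter on mean TPM, the genes called numbered 42 in U12Δ, 43 in U6atacΔ and 285 in SmnΔ, each against *WT*. At a mean of at least 5 TPM there were 89 in SmnΔ against *WT*, 81 in U12Δ against SmnΔ and 85 in U6atacΔ against SmnΔ. In fits of only the 4 libraries compared these counts were 40, 0 and 0. With each gene centred on its row neighbours they were 1 in U12Δ and 366 in SmnΔ, each against *WT*, and 235 in U6atacΔ against SmnΔ. With each library left out in turn, they ranged from 0 to 70 in U12Δ, from 0 to 73 in U6atacΔ and from 95 to 237 in SmnΔ, each against *WT*, and from 25 to 276 and from 29 to 261 in U12Δ and U6atacΔ against SmnΔ. The values of 70 and 73 came without *WT* library 2, and every other omission gave 0 in these comparisons.

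Same-numbered libraries deviated together at correlations of −0.0211 to 0.108, so the numbers were not taken to pair them. Under a block for the replicate number the counts were 0 in U12Δ, 0 in U6atacΔ and 149 in SmnΔ against *WT*, and 137 and 142 in U12Δ and U6atacΔ against SmnΔ, and no subunit changed its call.

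Of the log2 differences of subunits, none of which was called, 4 changed sign with median-ratio scaling. These were *nAChRalpha6* (0.071), *nAChRalpha7* (0.060) and *nAChRbeta1* (0.014) in U12Δ and *nAChRalpha2* (0.055) in U6atacΔ against *WT*, and this scaling also moved the median of all genes by over 0.1. Centring on row neighbours turned 11, in U12Δ against *WT* *nAChRalpha1* (0.14), *nAChRalpha2* (0.24), *nAChRalpha6* (0.011) and *nAChRbeta1* (1.28), in U6atacΔ against *WT* *nAChRalpha2* (0.63) and *nAChRalpha4* (−1.35), in U12Δ against SmnΔ *nAChRalpha1* (0.0040), and in U6atacΔ against SmnΔ *nAChRalpha2* (0.39), *nAChRalpha5* (−1.98), *nAChRalpha7* (0.10) and *nAChRbeta1* (−1.01). The cause was not tested.

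Leaving out single libraries turned others, whose ranges against *WT* were, in U12Δ, −1.08 to 0.12 for *nAChRalpha6*, −0.86 to 0.042 for *nAChRalpha7*, −1.36 to 0.62 for *nAChRbeta1* and −0.37 to 3.33 for *nAChRbeta2*. In U6atacΔ they were −0.89 to 0.30 for *nAChRalpha2*, −0.54 to 1.72 for *nAChRalpha4* and −0.40 to 0.51 for *nAChRalpha7*, and in SmnΔ −0.71 to 0.78 for *nAChRalpha1* and −0.29 to 2.11 for *nAChRalpha6*. Against SmnΔ, the ranges were −2.15 to 0.016 for *nAChRalpha5* and −1.07 to 2.62 for *nAChRbeta2* in U12Δ, and −1.15 to 0.036 for *nAChRalpha2*, −3.18 to 0.0087 for *nAChRalpha4*, −0.62 to 1.75 for *nAChRalpha5* and −0.41 to 3.44 for *nAChRbeta1* in U6atacΔ. In these fits the lone library of a strain is assumed to vary like the other strains.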
